A study of Folsomia candida with 36 samples.

Results

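The 100 genes described here are those whose expression followed the first principal component of whole-body RNA sequencing in Folsomia candida, a springtail and soil-living arthropod common in ecotoxicological tests. A principal component is the axis along which the libraries differ most over all genes at once, and each library has a score on it. The component was computed from 11667 of the 28734 gene models, those with a mean of at least 5 CPM (counts scaled by the library's total) and a variance of log2 CPM of at most 4. The 100 genes with the largest absolute Pearson correlation with the scores over the 36 libraries were taken, so the genes were chosen by their measured levels in these same libraries. All 100 correlated positively and 0 negatively, where the positive direction is the one in which most of them lie. The deposited counts carry identifiers without product names. A RefSeq table listing 27231 Folsomia candida genes contained 0 of the identifiers, so no gene is named by function.

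Pools of 70 animals of the Berlin strain, labelled wild type, were kept on LUFA2.2, a natural soil. Exposed pools received imidacloprid, 0.25 mg per kg of dry soil, and control soil was wetted with plain water. Pools of both treatments were sampled at 12, 24, 36, 48, 60 and 72 h, with 3 libraries at each time point and treatment, which gave 18 exposed and 18 control libraries. Imidacloprid belongs to the neonicotinoids, insecticides whose targets are the nicotinic acetylcholine receptors of nerve cells. The concentration is the EC20, the one that lowers reproduction by 20%. RNA came from whole bodies, so a gene's level is an average over tissues and over the animals of a pool, and fewer cells of a type cannot be told apart from less RNA per cell. Total counts were between 20280135 and 42146055 per library.

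Adult springtails go on moulting throughout life, and in Folsomia candida, which reproduces without males, instars with and without egg laying alternate. Feeding, cuticle formation and egg production follow this cycle. The age and moulting stage of the animals are not given in the labels. A leading component of RNA sequencing data can also reflect the balance between a few very abundant transcripts and all others, because CPM values of a library share a fixed total. The share of counts in the most abundant gene models is therefore given beside the scores.

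The component held 35.5% of the variance of log2 CPM, against 12.4% for the second. The 100 genes had correlations of 0.960 to 0.983 with it, with a median of 0.967. These correlations chose the genes and are given as a description. The last gene inside the list, Fcan01_05043, stood at 0.9605 and the first outside, Fcan01_03824, at 0.9604, so the limit falls within a continuous series. In all, 1351 genes had a correlation above 0.9 and 2782 above 0.8. On the opposite side 9 genes lay below -0.9 and 350 below -0.8. The strongest negative gene, Fcan01_08476, had -0.936 and ranked 557 by absolute correlation, which is why the list holds no gene of that sign.

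**Figure D1:**
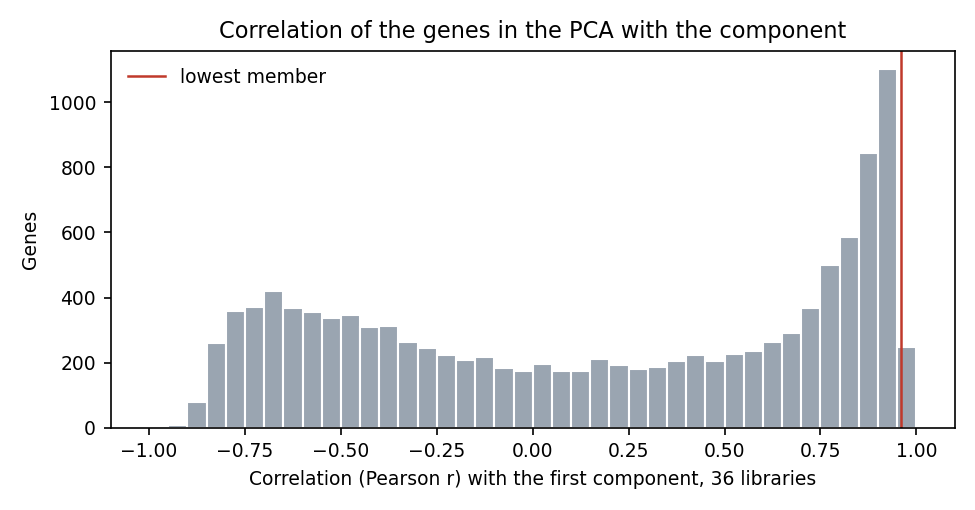
Number of genes (vertical axis) by Pearson correlation with the first component over 36 libraries (horizontal axis, bins of 0.05) for the 11667 genes that entered the analysis. The red line marks the lowest correlation among the 100 genes taken, 0.960; the distribution is lopsided, with 2782 genes above 0.8 and 350 below -0.8.

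The 100 genes were of moderate abundance. Their mean levels ran from 7.81 to 597 CPM with a median of 53.7 CPM, against a median of 32.9 CPM over all genes in the analysis. Of the 100, 79 lay between 10 and 100 CPM and 20 above, and 0 were among the 100 most abundant gene models. The lowest count of any of them in any library was 67, so counting error was small beside the differences described below. The SD of log2 CPM over the 36 libraries had a median of 0.47 in the 100 genes and 0.37 in all genes of the analysis. The highest library exceeded the lowest by 2.28-fold to 10.1-fold, with a median of 4.08-fold. Correlations between pairs of the 100 genes, all over the same 36 libraries, were between 0.904 and 0.992 with a median of 0.958. Choosing genes by a high correlation with the same score forces high correlations among them, so these values are a description. Counts over the 100 are not counts of independent genes. Their correlations with the second component were between -0.097 and 0.179. Among their identifiers, 0 pairs were consecutive and 4 pairs of neighbours in the sorted list lay within 5 of each other.

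Scores on the component spread widely between libraries of the same group. At 12 h they were -44.6, 19.3 and 28.6 in exposed libraries and 9.42, -35.8 and -1.66 in controls. At 24 h they were 20.1, 10.9 and 4.44 in exposed libraries and -3.46, 15.0 and 13.2 in controls. At 36 h they were 14.0, 6.64 and 63.4 in exposed libraries and -17.2, 17.4 and -8.06 in controls. Exposed and control ranges overlapped at each of these times, and imidacloprid 36 h replicate 6 had the highest score of all. At 48 h the exposed libraries stood at 48.6, -63.8 and 2.19 and the controls at 26.2, 52.3 and 38.5. At 60 h the exposed libraries stood at -5.60, -78.3 and 12.7 and the controls at -5.90, 22.0 and -36.6. At 72 h the exposed libraries stood at -34.2, -40.1 and 2.05 and the controls at -21.8, -11.1 and -18.8. The lowest scores were those of imidacloprid 60 h replicate 3 and imidacloprid 48 h replicate 5, and ranges overlapped at these times too.

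**Figure D2:**
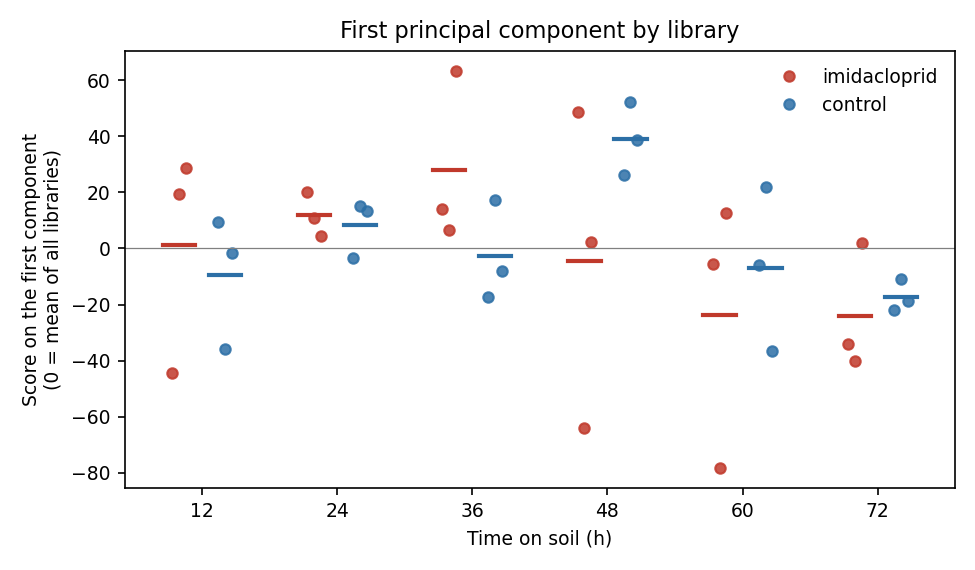
Score on the first component (vertical axis, 0 is the mean of all libraries) by time on soil in h (horizontal axis) for exposed libraries (red) and controls (blue); points are libraries and bars are means of 3. Exposed libraries at 48 h run from -63.8 to 48.6, and the 3 controls at 48 h lie between 26.2 and 52.3.

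Sums of squares of the scores put 63.4% within groups, 22.1% between time points, 0.374% between treatments and 14.2% in the change of the treatment difference with time. With no effect of time or treatment the degrees of freedom alone would give 68.6%, 14.3%, 2.86% and 14.3%. Over the log2 CPM values of the 100 genes these shares were 66.5%, 19.9%, 1.42% and 12.2%. Over all genes of the analysis they were 59.6%, 25.7%, 2.27% and 12.4%. Without the 3 libraries of most extreme score, all of them exposed (imidacloprid 60 h replicate 3, imidacloprid 48 h replicate 5 and imidacloprid 36 h replicate 6), a new component had 49.0% of its variance within groups, and 74 of its first 100 genes were the same. The 68.6% with no effect holds for 36 libraries, and the share for this smaller set is not given.

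Fcan01_20697, with the highest correlation with the component (0.983), shows the pattern in CPM. At 12 h it stood at 29.2, 46.6 and 51.5 CPM in exposed libraries and 44.1, 30.1 and 38.3 CPM in controls. At 24 h it stood at 51.2, 47.6 and 43.4 CPM in exposed libraries and 38.8, 49.9 and 51.7 CPM in controls. At 36 h it stood at 49.1, 46.5 and 63.1 CPM in exposed libraries and 37.3, 49.1 and 40.6 CPM in controls. The groups overlapped at all 3 times, and the single highest value belonged to imidacloprid 36 h replicate 6. At 48 h it stood at 57.8, 22.7 and 41.9 CPM in exposed libraries and 53.0, 62.9 and 57.4 CPM in controls. At 60 h it stood at 39.9, 20.7 and 46.8 CPM in exposed libraries and 40.1, 53.0 and 30.0 CPM in controls. At 72 h it stood at 29.0, 30.4 and 41.4 CPM in exposed libraries and 35.2, 39.2 and 38.3 CPM in controls. The lowest values, 20.7 and 22.7 CPM, came from the same exposed libraries that had the lowest scores, and the groups again overlapped.

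**Figure D3:**
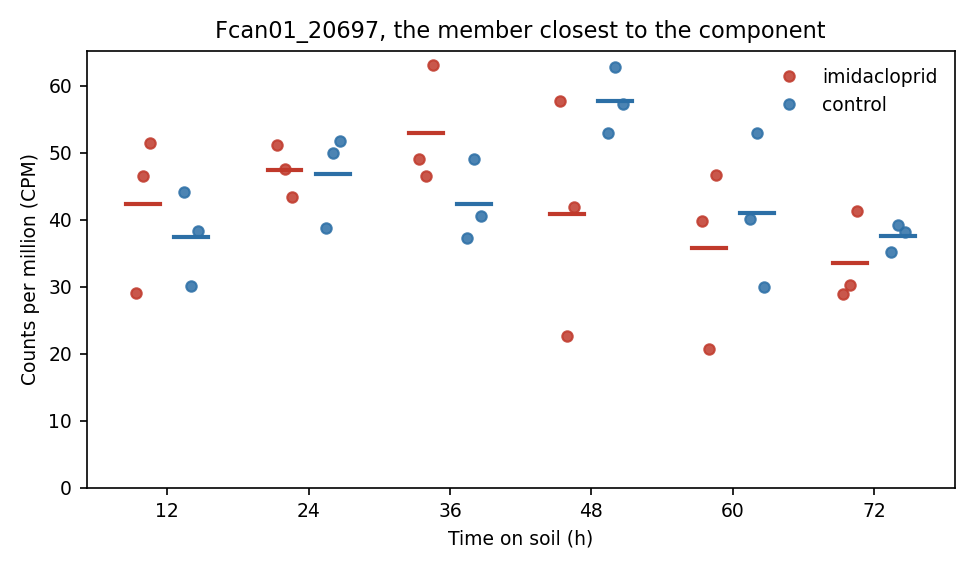
Level of Fcan01_20697 in CPM (vertical axis, from 0) by time on soil in h (horizontal axis) for exposed libraries (red) and controls (blue); points are libraries and bars are means of 3. Its lowest library, imidacloprid 60 h replicate 3, is at 20.7 CPM and its highest, imidacloprid 36 h replicate 6, at 63.1 CPM.

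Other genes of the list had a wider range. Fcan01_13158, with the second highest correlation, ranged from 11.4 CPM in imidacloprid 60 h replicate 3 to 70.4 CPM in imidacloprid 36 h replicate 6, with a median of 38.5 CPM. At 48 h, where its exposed libraries differed most, it stood at 64.0, 13.3 and 43.1 CPM in them and at 51.0, 67.2 and 55.2 CPM in controls. Fcan01_27600, the most abundant of the 100, had a mean of 597 CPM and stood at 992, 151 and 618 CPM in exposed libraries at 48 h and at 926, 1158 and 835 CPM in controls. At 60 h it stood at 561, 152 and 682 CPM in exposed libraries and at 539, 780 and 274 CPM in controls. Over the 100 genes, the lowest library was imidacloprid 60 h replicate 3 in 81 and imidacloprid 48 h replicate 5 in 19. The highest was imidacloprid 36 h replicate 6 in 75, control 48 h replicate 4 in 22, imidacloprid 48 h replicate 3 in 2 and control 48 h replicate 6 in 1. In 8 libraries all 100 genes lay below their own mean. Of these, 5 were exposed (12 h replicate 2, 48 h replicate 5, 60 h replicate 3, 72 h replicate 1 and library 71 of 72 h replicate 4) and 3 were controls (12 h replicate 3, 60 h replicate 6 and 72 h replicate 3). Genes chosen by the score have their extremes in libraries of extreme score, so these counts are a description.

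Together the 100 genes took between 0.299% of all counts, in imidacloprid 60 h replicate 3, and 1.27%, in imidacloprid 36 h replicate 6. The 100 most abundant gene models, which held none of them, took 20.7% to 32.4% in sum. Their summed share was lower in libraries of higher score, with a Pearson r of -0.715 and a Spearman rho of -0.661 over the 36 libraries. Single models of this group differed: 18 had a correlation above 0.8 with the component and 9 one below -0.8. Without the 2 libraries farthest from the median share r was -0.643. It was -0.786 within exposed libraries, -0.602 within controls and -0.670 for deviations from group means. The scaling factor of the trimmed mean of M values (TMM), a library correction for such shifts, had r = 0.587 and rho = 0.530, and r = 0.491 without the 2 farthest libraries. Within exposed libraries it had 0.630 and within controls 0.559. With TMM-scaled library sizes, 77 of the 100 genes were again in the list and r with the share of the most abundant gene models was -0.694.

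The number of gene models with at least 10 counts had r = -0.524 and rho = -0.523 with the score, and r = -0.533 without the 2 farthest libraries. It was -0.659 within exposed libraries and -0.218 within controls. Total count had r = -0.105 and rho = -0.027, and r = 0.0016 without the 2 farthest libraries. Within exposed libraries it had -0.225 and within controls 0.054. All of these measures are computed from the same counts as the score that chose the genes, so the correlations are given as a description with no test, and the part of these measures in the component was not tested.

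**Figure D4:**
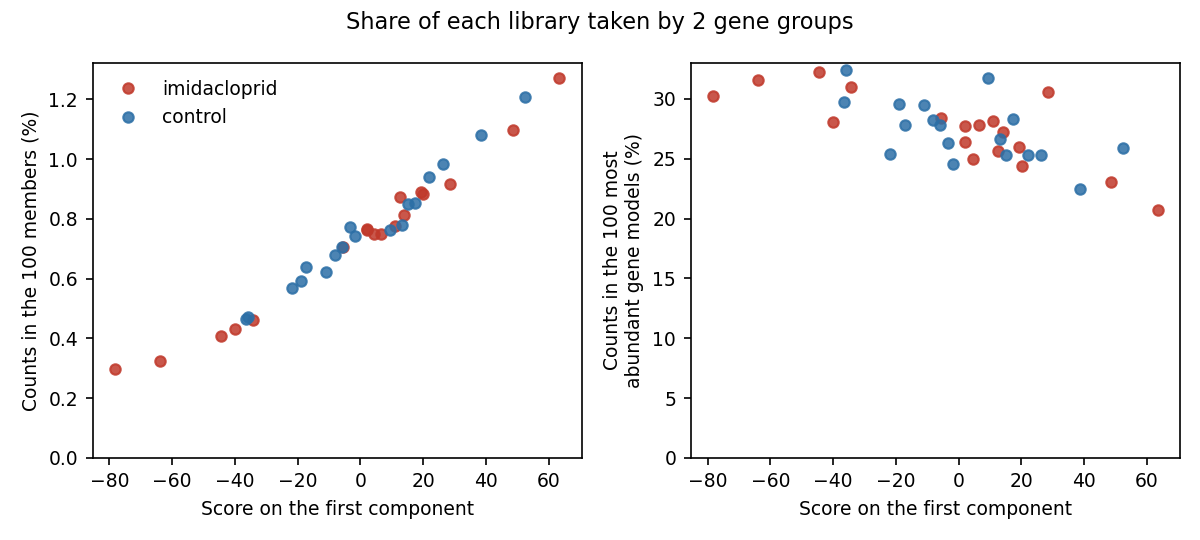
Percent of all counts of a library (vertical axes, from 0) taken by the 100 genes (left) and by the 100 most abundant gene models (right) against the score on the first component (horizontal axes); each point is a library, exposed in red and control in blue. The left share runs from 0.299% to 1.27% as the score goes up, and the right share goes down with it (r = -0.715).

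Imidacloprid against control asks whether exposed animals differed in these genes, and treatment labels played no part in choosing them. The genes were chosen for following the score, however, which had 63.4% of its sums of squares within groups and 0.374% between treatments. Tests of the 100 genes therefore largely repeat how the score lay between groups, and counts of 0 are not separate findings. The median log2 fold change of the 100 genes was above 0 at 12 and 36 h and below 0 at 48, 60 and 72 h, and none of the 100 passed the test at any time. All 100 passed the filter on low counts. In the comparison over all 6 time points, 0 of the 100 were called (edgeR quasi-likelihood test, Benjamini-Hochberg adjusted p under 0.05 over 19600 genes), where 0.306% of all tested genes were. Their log2 fold changes ran from -0.14 to 0.04 with a median of -0.06, against a median of -0.005 over all tested genes. Without imidacloprid 60 h replicate 3 the median was 0.0006, and without imidacloprid 48 h replicate 5 it was 0.0002. The median standard error was 0.13, and the 95% intervals of the 100 genes reached from -0.52 at the lowest to 0.43 at the highest. For Fcan01_20697 the log2 fold change was -0.08 ± 0.10 (SE), with an interval of -0.29 to 0.13.

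At 36 h all 100 genes had a positive log2 fold change, with a median of 0.30 against -0.07 over all tested genes, and 0 were called (edgeR), where 0% of all tested genes were. All 3 exposed libraries lay above every control for 11 of the 100, against 16.4% of the genes in the analysis. Without imidacloprid 36 h replicate 6 the median was 0.08 and 74 of the 100 were positive. At 48 h all 100 had a negative log2 fold change, from -0.85 to -0.26 with a median of -0.52, against 0.11 over all tested genes, and 0 were called (edgeR), where 0.0357% were. All 3 exposed libraries lay below every control for 1 of the 100, against 4.95% of the genes in the analysis. Dropping imidacloprid replicate 5 moved the 48 h median to -0.24 and dropping replicate 3 moved it to -0.90, so single libraries set its size. For Fcan01_20697 at 48 h the log2 fold change was -0.45 ± 0.25 (SE, 95% interval -0.97 to 0.07, edgeR adjusted p = 0.371).

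At the other time points the medians were closer to 0, and each changed sign when a single library was left out. At 12 h the median was 0.14 with 96 of 100 positive. Without imidacloprid replicate 6 it was -0.04, and 0.42 when imidacloprid replicate 2 was dropped instead. At 24 h it was 0.001 with 52 of 100 positive, and single omissions gave -0.04 to 0.05. At 60 h it was -0.20 with 0 of 100 positive. It was 0.12 without imidacloprid replicate 3 and 0.05 without control replicate 5. At 72 h it was -0.15 with 5 of 100 positive, and it was 0.01 without library 71 of imidacloprid replicate 4. At each of these times 0 of the 100 were called (edgeR), where 0% of all tested genes were called at 12 and 24 h, 0.0204% at 60 h and 0.0255% at 72 h.

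Full separation of exposed from control libraries was also counted. Scores of the 2 treatments overlapped at every time point, so genes chosen for following the score tend to overlap too. These counts, and those given above for 36 and 48 h, are therefore a description. At 12 h, 0 of the 100 had all exposed libraries above or all below the controls, where 1.05% and 1.57% of the genes in the analysis did. At 24 h the count was also 0 in both directions, where 2.86% lay above and 2.71% below. At 60 h it was 0 against 2.15% above and 2.16% below, and at 72 h 0 against 4.18% above and 3.2% below. In the directions not given earlier it was 0 at 36 h (below, 11.4%) and 0 at 48 h (above, 5.06%).

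**Figure D5:**
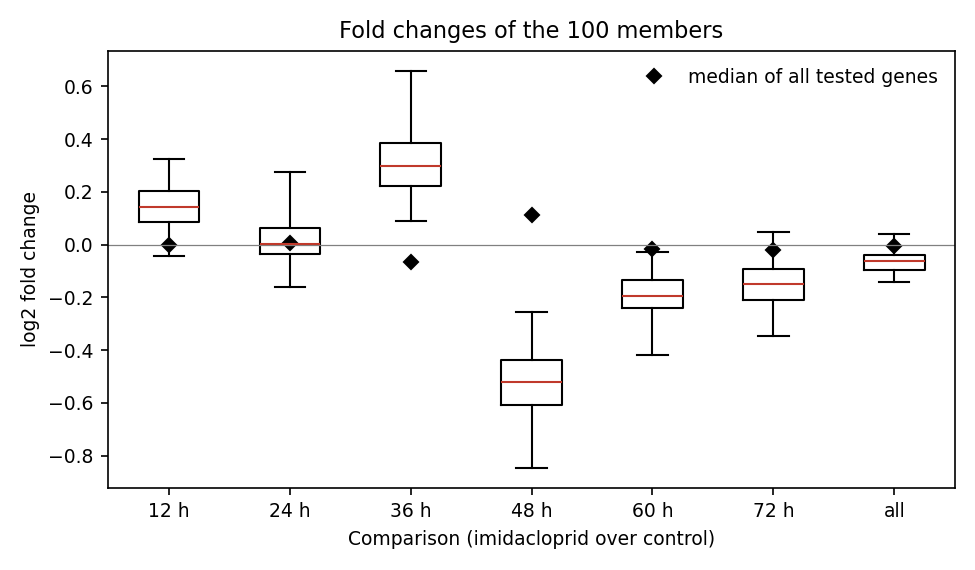
log2 fold change of imidacloprid over control (vertical axis, edgeR) for the 100 genes at each time point and over all of them (horizontal axis); boxes are quartiles with the median in red, whiskers reach the lowest and highest gene, and diamonds are medians of all tested genes. At 48 h all 100 genes lie below 0, with a median of -0.52, and none was called there or elsewhere.

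The change of the imidacloprid effect over time was also tested for each gene. Of the 100, 0 were called (edgeR F test, smallest adjusted p = 0.821), where 0% of all tested genes were. At an unadjusted p under 0.05 the count (edgeR) was 0 of 100 here, where 6.58% of all tested genes passed, and 0 over all time points, where 3.29% did. At 12, 24 and 36 h it was 0 as well, where 3.31%, 1.74% and 10.4% of all tested genes passed in that order. The later times 48, 60 and 72 h also gave 0, where 14.4%, 3.65% and 4.07% passed. DESeq2 also called 0 of the 100, where it called 0.311% of all tested genes for the change over time and 0.668% over all time points. At 12, 24, 36, 48, 60 and 72 h DESeq2 called 0 of the 100 and 0.0663%, 0.107%, 0.281%, 0.276%, 0.0816% and 0.107% of all tested genes. Limma-voom called 0 of the 100, and 0% of all tested genes for the change over time, 0.219% over all time points and 0% at 12, 24 and 36 h. At 48, 60 and 72 h it called 0 of the 100 and 0.0255%, 0.0204% and 0.0357% of all tested genes.

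Time on soil asks how the genes moved within a treatment. Here too the tests of the 100 genes largely repeat how the score that chose them lay between groups. In exposed animals 0 of the 100 were called across the time points (edgeR F test, smallest adjusted p = 0.395), where 1.06% of all tested genes were. At an unadjusted p under 0.05 the count was 0 of 100, where 15.2% of all tested genes passed. DESeq2 and limma-voom called 0 of the 100 there, and 6.09% and 0.699% of all tested genes. Between 72 and 12 h, all 100 had negative log2 fold changes in exposed animals, from -0.83 to -0.18 with a median of -0.42, against 0.03 over all tested genes. Of these, 0 were called (edgeR, smallest adjusted p = 0.363), where 0.898% of all tested genes were. At an unadjusted p under 0.05, 2 of the 100 passed, where 12.7% of all tested genes did. With single libraries left out the median lay between -0.69 (imidacloprid 12 h replicate 2 dropped) and -0.24 (imidacloprid 12 h replicate 6 dropped). In controls 5 of the 100 were positive between 72 and 12 h, with a median of -0.13. Of these 100, 0 were called (edgeR, smallest adjusted p = 0.645), where 2.9% of all tested genes were. At an unadjusted p under 0.05, 0 of the 100 passed, where 15.8% of all tested genes did. DESeq2 called 0 of the 100 in both treatments, and 2.55% of all tested genes in exposed animals and 5.62% in controls. Limma-voom called 0 of the 100 in both, and 0.903% of all tested genes in exposed animals and 2.54% in controls. The median in controls was -0.31 without control 12 h replicate 3 and 0.007 without control 12 h replicate 2.

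In controls the 48 h libraries stood highest: their scores, 26.2 to 52.3, lay above those of the other 15 controls, the nearest of which was 22.0. For 53 of the 100 genes all 3 control libraries at 48 h lay above the other 15, which held for 6.14% of the genes in the analysis. With TMM-scaled library sizes the count was 43 of 100, against 5.28%. All 3 lay below the other 15 for 0 of the 100, against 1.34%. The count follows from the shared movement of the 100 genes, and this time point was singled out after the values were seen. Across the 6 time points 0 of the 100 were called in controls (edgeR F test, smallest adjusted p = 0.305), where 1.28% of all tested genes were. At an unadjusted p under 0.05 the count was 0 of 100, where 19.6% of all tested genes passed. DESeq2 and limma-voom called 0 of the 100, and 8.54% and 0.577% of all tested genes. The smallest adjusted p was 0.0611 without the 3 libraries of most extreme score, all of them exposed, which enter this test through the shared estimate of spread.

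On this component and in the 100 genes, the spread between libraries of a group was wider in exposed libraries than in controls. The pooled SD of the scores within groups was 37.9 in exposed libraries and 18.4 in controls. It was wider in exposed libraries at 5 of the 6 time points, the exception being 24 h with 7.86 in exposed libraries and 10.2 in controls. The median SD of log2 CPM within groups over the 100 genes was 0.59 in exposed libraries and 0.29 in controls. All 100 had the wider spread in exposed libraries, as had 67.1% of the genes in the analysis, whose median SD was 0.37 in exposed libraries and 0.29 in controls. Without the 3 libraries of most extreme score the pooled SD of the scores was 25.0 in exposed libraries and 18.4 in controls, and the median over the 100 genes was 0.40 in exposed libraries and 0.29 in controls. All 100 were still wider in exposed libraries, against 53.9% of the genes in the analysis, whose median SD was then 0.30 in exposed libraries and 0.29 in controls. The exposed libraries with extreme scores helped to set the component itself. A wider exposed spread in genes chosen for following it is therefore partly built into the choice. The difference in spread was not tested.

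Genes chosen in the libraries of a single treatment were also read in the other treatment, whose libraries had no part in the choice. The rule applied to the 18 exposed libraries gave 100 positive genes, 50 of them in the list of all libraries. In controls their pairwise correlations had a median of 0.891, and 87.3% of the pairs were above 0.8, against 0.015 and 3.00% over all pairs of genes in that analysis. Applied to the 18 control libraries it gave 100 genes, 99 positive and 29 in the list of all libraries. In exposed libraries their pairwise correlations had a median of 0.963, and 98% of the pairs were above 0.8, against 0.026 and 9.32% over all pairs. Their median SD within groups was 0.63 in exposed libraries and 0.33 in controls, and it was wider in exposed libraries for 100 of 100, against 67.2% of the genes in that analysis. Without the 3 libraries of most extreme score, which also enter this reading, it was 0.43 in exposed libraries and 0.33 in controls, and wider in exposed libraries for 97 of 100, against 53.9%. The control libraries chose these genes, so only the exposed SD comes from libraries outside the choice. These genes move together, so 100 and 97 are not counts of independent genes, and the difference was not tested. The first component held 48.0% of the variance in exposed libraries alone and 27.1% in controls alone. Of the variance of its scores, 72.1% lay within groups in exposed libraries alone and 40.3% in controls alone, where 70.6% would with no effect of time.

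The opposite side of the component is described by its strongest genes, which are not in the list. Fcan01_08476 is an abundant transcript with 1575 CPM in imidacloprid 36 h replicate 6, a median of 2344 CPM and 3485 CPM in imidacloprid 60 h replicate 3. Its lowest and highest libraries are thus the reverse of those of most of the 100 genes, with a 2.21-fold range. Fcan01_07805, with a correlation of -0.931, is a low transcript that ranged from 3.03 CPM in imidacloprid 36 h replicate 6 to 19.0 CPM in imidacloprid 60 h replicate 3.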

How the data were processed

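TRIzol-extracted RNA went into TruSeq stranded mRNA libraries, per the labels' protocols. These state that the authors ran Trim Galore (Cutadapt version written as 0.6.7), then Salmon 1.4.0 against a transcriptome, and normalized with DESeq2 1.28.1. The file holds deposited estimated counts before normalization: whole numbers (0 exceptions) whose totals differ between libraries. No source used here names the transcriptome release. Because Salmon shares ambiguous reads out by estimation, values of gene copies with almost the same sequence are uncertain.

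Groups came from treatment and time in the titles. Of the imidacloprid 72 h libraries, 2 carry replicate number 4 and are told apart by library numbers 71 and 72. Their chi-square per degree of freedom, 87.2, lay within the 16.9 to 277 of the 36 pairs of libraries within groups, so both were kept as replicates. Nothing in the labels says how replicates were made beyond separate libraries of pools, and p-values measure the spread between these libraries. Libraries of both treatments with the same replicate number at a time point gave 8 pairs. Correlations of their deviations from group means were between -0.373 and 0.560, with 3 above 0.1, so equal numbers were not treated as pairs.

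The members and lists were chosen with earlier results of these data known. CPM in the component analysis are counts divided by the column total; log2 values used a pseudocount of 0.5, and 0.1 for the variance limit, which left out 52 genes. Tests used edgeR 4.0.16 in R 4.3.3 with filterByExpr (minimum count 10, total 15), which kept 19600 genes, TMM scaling (factors 0.890 to 1.103) and a robust quasi-likelihood fit of 12 group means to 36 libraries with 24 residual degrees of freedom. Between-library variation, as edgeR's biological coefficient, had a median of 28.2% in the 100 genes and 30.2% in all tested genes. DESeq2 1.42.0 and limma-voom (limma 3.58.1) were alternatives. Correlations of library measures with the score (numpy 2.4.6) are given without the permutation p-values computed for them, since both come from the same counts. Genes named are the first 2 by correlation, the most abundant, those at the limit, and the 2 strongest negative genes, the last chosen after their values were seen. Lists by product name could not be applied. Steps were tested on simulated data with known changes. There edgeR called 93% of the 2-fold changes over all time points, but only 32% to 46% at single time points. A count of 0 at a single time point therefore does not exclude changes of that size or smaller.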

Additional observations from a re-analysis of the deposited data

How the results depend on the processing

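In 12 comparisons under 44 alternatives (528 in all) 0 of the 100 genes were called, and the smallest adjusted p was 0.0611. This covers DESeq2, limma-voom, DESeq2 size factors, no filter, a filter of 5 CPM in 3 libraries, libraries 71 and 72 summed, each library left out, and all 3 of most extreme score left out, chosen after seeing the data. With the replicate block the count was 0 as well in each comparison. The 100 genes move together, so these counts are not independent of each other. They also largely repeat how the score that chose the genes lay between groups. Over the 12 comparisons, 0% to 2.9% of all tested genes were called in the main edgeR analysis. The shares were 0.0663% to 8.54% with DESeq2 and 0% to 2.54% with limma-voom, and are not given here for the other alternatives. The list depended more on the settings: 56 of the 100 genes were taken again with genes scaled to unit variance, 64 with group means subtracted, 50 in exposed libraries alone and 29 in controls alone. Leaving out single libraries kept 77 to 99, the fewest without control 24 h replicate 3. The within-group share of the component's variance was 63.7%, 63.1% and 62.6% with pseudocounts of 0.1, 1 and 5, 62.0% and 63.9% with minimum means of 1 and 20 CPM, 63.5% without the variance limit, 62.0% with scaled genes and 62.9% with TMM scaling. It was 72.1% in exposed libraries alone, 40.3% in controls alone, 49.0% without the 3 libraries of most extreme score, and between 53.7% and 67.2% with single libraries left out (66.1% without library 71 and 60.3% without library 72 of imidacloprid 72 h). Settings with fewer libraries have other shares with no effect, so these values are not directly comparable. The cause was not tested. Over all time points the log2 fold change of Fcan01_13158 was between -0.134 and 0.022 with single libraries left out, and 0.0324 without the 3 extreme libraries, where that of Fcan01_20697 was 0.000486. For a component computed anew from controls alone, the r of its score with total count was 0.0456 and with detected gene models -0.166. With the share of the 100 most abundant gene models it was -0.493, and with the TMM factor 0.476. The lowest count of any of the 100 genes was 67, and each group held 3 libraries.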

Other observations

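Beyond the 100 genes, the component divided a larger part of the transcriptome. The 2782 genes with a correlation above 0.8 took between 10.8% of all counts, in imidacloprid 60 h replicate 3, and 32.4%, in imidacloprid 36 h replicate 6. The 350 genes with a correlation below -0.8 took 5.85% and 2.00% in the same libraries. They were fewer and of lower median abundance, with a median of 24.3 CPM against 43.7 CPM for the genes above 0.8.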
